A study of Mus musculus with 20 samples.

Results

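The transcripts of 9 scavenger and clearance receptors were followed in BV-2 cells, an immortalized line of mouse microglia, and were picked by gene symbol. They are Msr1 (ENSMUSG00000025044), Marco (ENSMUSG00000026390), Cd36 (ENSMUSG00000002944), Scarb1 (ENSMUSG00000037936), Scarb2 (ENSMUSG00000029426), Cd68 (ENSMUSG00000018774), Mrc1 (ENSMUSG00000026712), Siglec1 (ENSMUSG00000027322) and Lgals3 (ENSMUSG00000050335). Each of the 9 symbols matched exactly 1 of the 56941 Ensembl gene IDs in the deposited table, and all 9 passed the filter on low counts that left 13755 genes for testing. The study compared wild-type cells with a derivative labelled as RGS10 knockout, each kept for 48 h in medium as vehicle or with IFNγ at 10 ng/mL. All 4 groups come from the BV-2 line, share medium and serum, and hold 5 libraries each (20 in all) of poly(A)-enriched RNA: 3 per group in batch 1, 1 in batch 2 and 1 in batch 3. How the knockout was made, and whether it is 1 clone, is not given in the sources used here. The labels call the replicates biological without naming separate cultures, so the p-values measure only the spread between these samples.

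Scavenger receptors bind modified lipoproteins, bacterial surfaces, dying cells and other polyanionic cargo and carry it into the cell for digestion. Class A receptors (Msr1, Marco) are trimeric and bind acetylated or oxidized lipoprotein and bacteria. Class B receptors share a fold with a membrane anchor at both ends: Cd36 takes up oxidized lipoprotein and long-chain fatty acids, Scarb1 exchanges cholesterol with high-density lipoprotein, and Scarb2 is a protein of the lysosomal membrane. Cd68 is a heavily glycosylated protein of late endosomes and lysosomes, widely used as a marker of phagocytic cells. Mrc1 is the macrophage mannose receptor, Siglec1 (sialoadhesin) binds sialylated glycans, and Lgals3 encodes galectin-3, a soluble lectin that recognises damaged endosomes and opsonises targets. In microglia this machinery clears myelin debris, apoptotic neurons and protein aggregates.

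Total counts per library ran from 15866749 to 29157740, and levels are given as CPM, a gene's read count relative to the TMM-scaled total of its library. Rgs10 reads were present in all 20 libraries, at 55.1 to 73.0 CPM in wild-type and 22.6 to 34.6 CPM in knockout vehicle libraries (−1.17 ± 0.17 log2, edgeR adjusted p = 3.2e-05). Under IFNγ wild-type libraries held 22.2 to 28.7 CPM except replicate 4 at 50.0 CPM, and knockout libraries 15.5 to 21.1 CPM except the library labelled knockout, IFNγ, replicate 4 at 50.5 CPM (−0.33 ± 0.17 log2, edgeR adjusted p = 0.13). The IFNγ libraries of batch 2 thus stood above the rest of their group in both lines, and Rgs10 did not separate the lines there. Directions between lines rest on the labels. Without the library labelled knockout, IFNγ, replicate 4, 6 of 9 members were called with IFNγ in knockout cells against 8 with it. Over all genes 5483 of 13951 were called there without that library, against 5937 of 13755 with it. Scarb1 (−0.44 log2, edgeR adjusted p = 0.081) and Cd68 (0.30 log2, edgeR adjusted p = 0.080) lost their calls. The same members stayed called between the lines under IFNγ (6) and for the difference of the responses (4). Over all genes these 2 comparisons had 5689 and 1448 calls without that library, against 5363 and 894 with it. All 10 microglia and macrophage markers had reads, and their summed level was 1840 to 5750 CPM. Summed markers of astrocytes, neurons, oligodendrocytes, fibroblasts, T cells and B cells stayed at or under 6.22 CPM in every library. The 3 endothelial markers together went from 0.864 to 1.83 CPM under vehicle to 2.71 to 17.0 CPM under IFNγ in wild-type cells, and from 0.243 to 0.902 CPM to 1.76 to 11.3 CPM in knockout cells. Pecam1 carried this, Cldn5 had reads in the wild-type IFNγ group alone (mean of 0.00775 CPM), and the part of these markers in the results was not tested. Malat1, a nuclear RNA taken here as a sign of library quality, reached 51.4 to 166 CPM under vehicle. In batch 1 it went from 64.4 to 84.0 CPM under vehicle to 355 to 386 CPM with IFNγ in wild-type cells, but stayed between 51.4 and 72.4 CPM in knockout cells under both treatments. The IFNγ libraries of batches 2 and 3 reached 955 to 1510 CPM in both lines. Malat1 thus moved with IFNγ in wild-type cells, with the line under IFNγ in batch 1, and with batch among IFNγ libraries, alongside the responses and line differences given here, and its part in them was not tested.

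Promoter sequence shows what lies just upstream of members that moved in opposite directions: Cd36, Lgals3 and Cd68, which rose with IFNγ in both lines, and Mrc1, which fell in both. RefSeq (GRCm38.p6) held a start for 6 of the 9 members, and not for Msr1, Scarb1 and Siglec1. The 250 bases before the start are printed 5′ to 3′ on the gene's strand, with motif matches in capitals and everything else in lower case.
Cd36 (chr5:17835897-17836146, minus strand): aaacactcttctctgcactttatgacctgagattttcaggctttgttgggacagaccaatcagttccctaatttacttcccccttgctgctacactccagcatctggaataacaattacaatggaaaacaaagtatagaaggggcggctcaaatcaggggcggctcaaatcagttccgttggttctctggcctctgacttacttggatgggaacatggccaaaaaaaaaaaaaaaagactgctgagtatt
Lgals3 (chr14:47373610-47373859, plus strand): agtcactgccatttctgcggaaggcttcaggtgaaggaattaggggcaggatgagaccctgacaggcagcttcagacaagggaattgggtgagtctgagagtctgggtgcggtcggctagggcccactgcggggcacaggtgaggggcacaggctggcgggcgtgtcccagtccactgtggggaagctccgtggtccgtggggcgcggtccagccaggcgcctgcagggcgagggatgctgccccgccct
Cd68 (chr11:69666171-69666420, minus strand): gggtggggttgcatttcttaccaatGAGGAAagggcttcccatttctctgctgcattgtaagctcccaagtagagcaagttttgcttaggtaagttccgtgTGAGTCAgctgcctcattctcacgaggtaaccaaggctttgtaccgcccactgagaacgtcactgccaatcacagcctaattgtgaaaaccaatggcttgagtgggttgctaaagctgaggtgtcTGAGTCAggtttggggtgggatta
Mrc1 (chr2:14229164-14229413, plus strand): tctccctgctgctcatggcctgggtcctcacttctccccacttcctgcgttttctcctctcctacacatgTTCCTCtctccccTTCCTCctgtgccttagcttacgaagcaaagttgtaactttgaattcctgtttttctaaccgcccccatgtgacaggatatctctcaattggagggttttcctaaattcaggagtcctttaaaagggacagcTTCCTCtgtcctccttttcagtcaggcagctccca
The Cd36 window belongs to 1 RefSeq start and lies inside the Cd36 span of GENCODE vM21, which begins further upstream. Both strands were searched for the gamma-activated site (TTCNNNGAA, in 7.02% of 32851 RefSeq promoter windows of this length), the core of the interferon-stimulated response element (2.98%), the PPAR-RXR direct repeat (0.0335%), the E-box (CACGTG, 6.02%), the antioxidant response core (TGACNNNGC, 10.2%) and the TATA box (TATAAA, 12.4%). None of the 6 motifs was found in the 4 windows shown. Of the other 2 windows, Scarb2 held 1 antioxidant response core and Marco held none of the 6. The PU.1 core GAGGAA (23.3% of windows) and the AP-1 site TGANTCA (6.75%) were added after that search. Mrc1 held 3 PU.1 cores, all on the reverse strand and read as TTCCTC above, Cd68 held 1 PU.1 core and 2 AP-1 sites, and Marco held 1 PU.1 core. Cd36 and Lgals3 held neither. A match is a run of letters, not a binding event, and a window without one says nothing about the factor.

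Levels were compared between members per length, as CPM per kilobase of exon (RPKM), from exon lengths of GENCODE vM21. In wild-type vehicle cells Cd68 (623 ± 58 RPKM, SD, n = 5) and Lgals3 (505 ± 113) stood far above the rest. Their ranges overlapped, although Cd68 was higher in 5 of 5 libraries. The next 6 members lay close together, from Cd36 at 22.2 ± 9.6 RPKM through Siglec1 (20.6 ± 7.92), Scarb1 (20.3 ± 1.84), Mrc1 (17.6 ± 5.19) and Scarb2 (15.1 ± 1.99) to Msr1 at 12.7 ± 8.9, with overlapping libraries for each pair of neighbours. Marco was the lowest, at 1.18 ± 0.50 RPKM. With IFNγ the wild-type order spread out to Lgals3 (3617 ± 1217 RPKM), Cd68 (1039 ± 211), Cd36 (225 ± 79) and Msr1 (82.8 ± 21.5), none of which overlapped its neighbour. Below them Scarb2 (15.1 ± 4.64) and Scarb1 (13.2 ± 6.67) overlapped, and Siglec1 (6.29 ± 1.32), Marco (3.47 ± 0.543) and Mrc1 (1.92 ± 0.644) were each separate from the next. Knockout vehicle cells had Lgals3 (708 ± 120 RPKM) above Cd68 (519 ± 61) without overlap. Scarb1 (21.7 ± 1.77) and Scarb2 (16.6 ± 0.940) came next, then Siglec1 (2.60 ± 0.467), Cd36 (2.19 ± 0.839), Msr1 (2.12 ± 0.606) and Mrc1 (1.71 ± 0.615) as neighbours that overlapped, and Marco at 0.0581 ± 0.0672. With IFNγ the knockout order ran from Lgals3 (2383 ± 1088 RPKM) and Cd68 (679 ± 124) over Cd36 (60.7 ± 11.7) and Msr1 (20.95 ± 5.87) to Scarb2 (16.2 ± 1.93), Scarb1 (15.7 ± 1.79), Siglec1 (5.17 ± 2.36), Mrc1 (0.495 ± 0.289) and Marco (0.305 ± 0.164). Msr1 overlapped Scarb2, Scarb2 overlapped Scarb1, and Mrc1 overlapped Marco in that group.

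**Figure D1:**
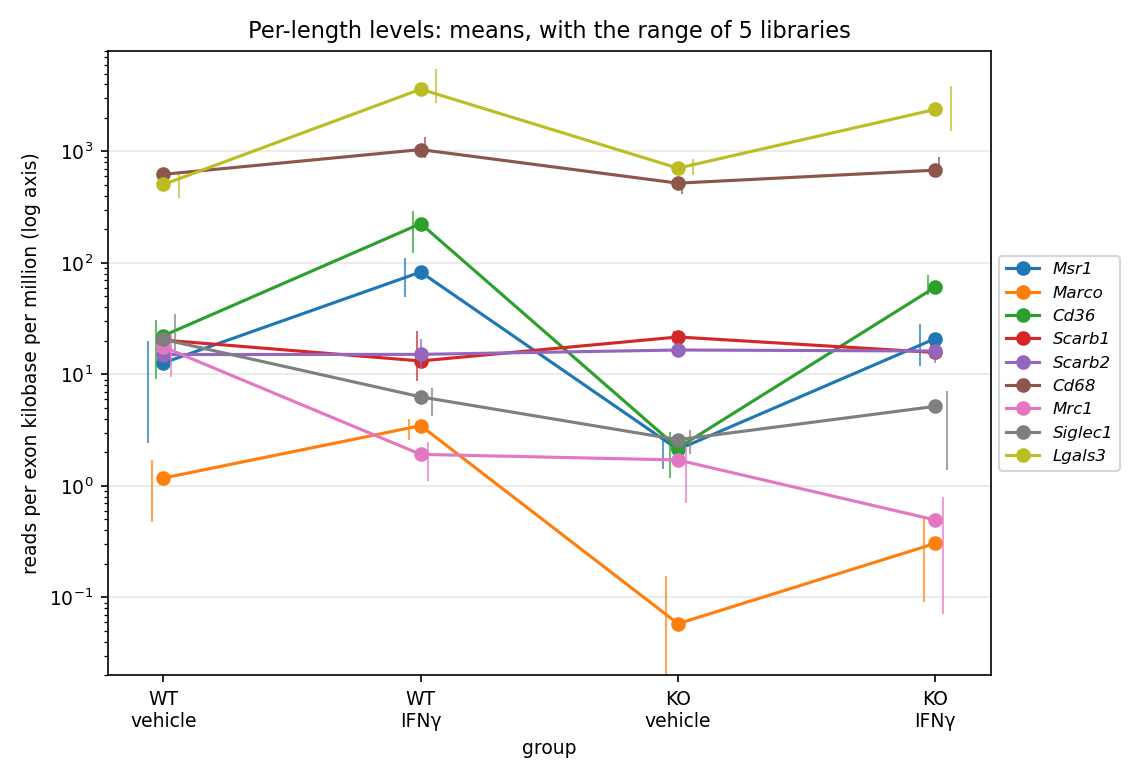
Mean level of each of the 9 genes per exon length (RPKM, log axis) in the 4 groups, with vertical lines for the lowest to highest of 5 libraries and joining lines as a guide to the eye. The line for Marco in knockout vehicle cells runs off the axis because 2 libraries had no read, and Cd36, Msr1, Siglec1 and Mrc1 sit near 2 RPKM in that group.

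The first comparison asks what IFNγ does to this receptor set in wild-type cells. Msr1, Marco, Cd36, Cd68 and Lgals3 rose and Scarb1, Mrc1 and Siglec1 fell, by 1.64-fold to 10.3-fold, and only Scarb2 was not called. In bulk RNA, fewer cells carrying a transcript and less of it per cell cannot be told apart. Called means a Benjamini-Hochberg adjusted p under 0.05 in edgeR's quasi-likelihood test with batch as a term, over all tested genes. In wild-type cells 58.9% of all genes tested were called (29.0% higher, 29.9% lower), against 8 of 9 members (5 higher, 3 lower). The median size of the change was 1.69 log2 over the members and 0.67 over all genes. The members were chosen with earlier results of these data known. Contrasts with all genes, here and below, therefore describe the set and do not test it. CPM of the groups did not overlap for 7 members, and for 36.2% of all genes.

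In knockout cells IFNγ raised Msr1, Marco, Cd36, Cd68, Siglec1 and Lgals3 and lowered Scarb1 and Mrc1, by 1.29-fold to 31.0-fold. These 8 of 9 calls (6 higher, 2 lower) stand beside 43.2% of all genes tested (21.4% higher, 21.8% lower). The median size was 1.66 log2 over the members and 0.47 over all genes. Groups did not overlap for 5 members and 27.6% of all genes.

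Knockout against wild type asks how the lines differ. Under vehicle Msr1, Marco, Cd36, Mrc1 and Siglec1 were lower in knockout cells, by 5.18-fold to 10.7-fold leaving Marco aside, and Lgals3 was 1.41-fold higher. That is 6 of 9 members (1 higher, 5 lower) against 27.3% of all genes (12.5% higher, 14.8% lower), with a median of −2.37 log2 over the members and 0.03 over all genes. Groups did not overlap for 5 members and 24.9% of all genes. Marco had to be lower in knockout cells, since it passed the filter only through its wild-type libraries. Without it 5 of 8 members were called (1 higher, 4 lower), the median was −1.31 log2 and 4 members did not overlap. Under IFNγ Msr1, Marco, Cd36, Cd68, Mrc1 and Lgals3 were lower in knockout cells, by 1.53-fold to 4.13-fold leaving Marco aside. This made 6 of 9 members called, all lower, against 39.0% of all genes (19.0% lower), with medians of −0.64 log2 and 0.01. Over all 20 libraries none of the 9 was called higher in edgeR with TMM scaling, in DESeq2 or in limma-voom. In that edgeR fit only Scarb1 (0.31 log2) and Scarb2 (0.13 log2) had higher values, at an unadjusted p of 0.092 and 0.38. Scarb1 was called higher in 4 other settings and Scarb2 in 2, given with these genes. Groups did not overlap for 4 members and 15.1% of all genes. Without Marco 5 of 8 members were called, all lower, with a median of −0.63 log2 and 3 that did not overlap. The IFNγ response itself differed between the lines for Cd36, Mrc1, Siglec1 and Lgals3 (4 of 9, against 6.50% of all genes, 3.64% higher and 2.86% lower). These 5 comparisons reuse the same 4 groups and are not independent of each other.

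**Figure D2:**
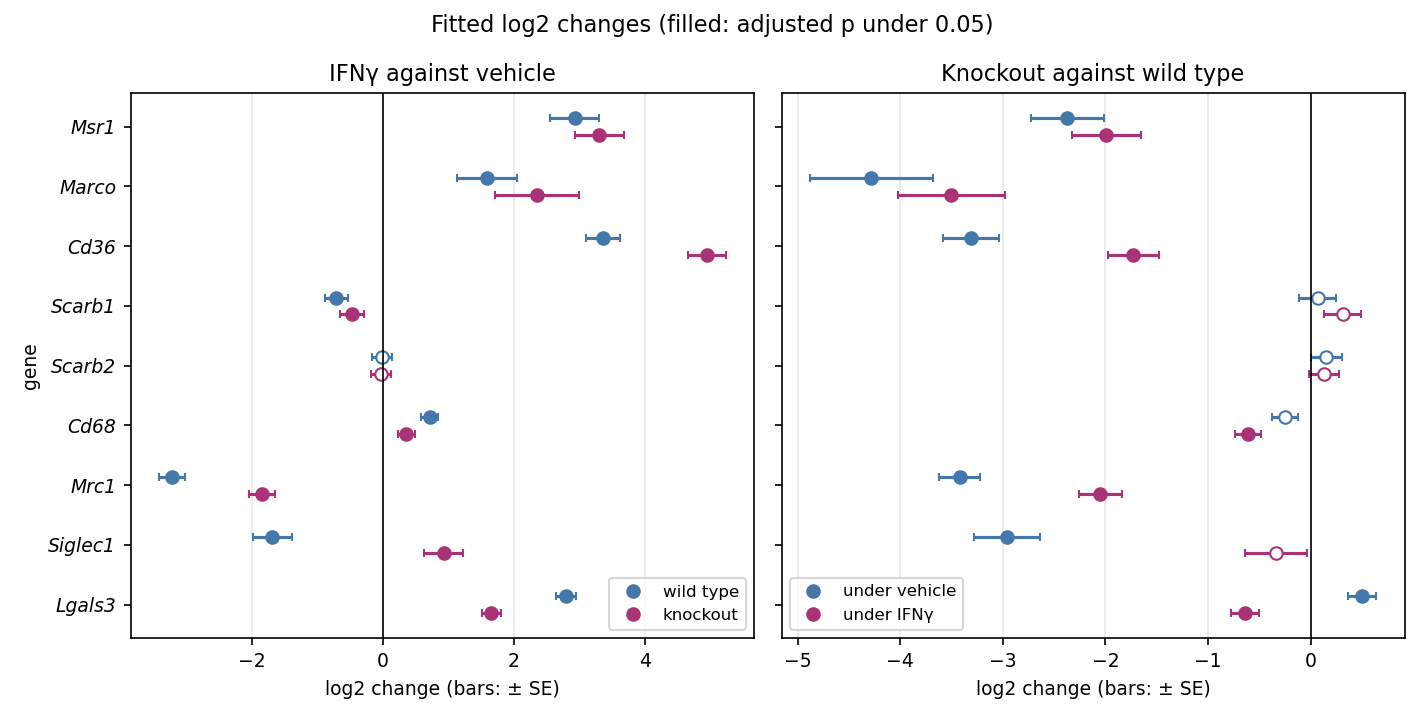
Fitted log2 change (x axis, bars ± SE) of each gene with IFNγ in wild-type and knockout cells (left) and in knockout against wild-type cells under vehicle and IFNγ (right), with filled points for an adjusted p under 0.05. Siglec1 is the one gene whose 2 IFNγ responses lie on opposite sides of 0 and are both called, at −1.69 and 0.93.

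Among the class A receptors, Msr1 rose with IFNγ in both lines and was lower in the knockout under both treatments. Wild-type vehicle libraries held 110.5, 127 and 126 CPM of Msr1 in batch 1 but 15.4 CPM in batch 2 and 22.6 CPM in batch 3. With IFNγ these cells reached 540.3, 555 and 519 CPM in batch 1, 316 CPM in batch 2 and 697 CPM in batch 3. Every IFNγ library thus lay above every vehicle library, and the vehicle level of batch 1 lay far above that of the other batches. The fitted rise was 7.64-fold (2.93 ± 0.37 log2, adjusted p = 1.6e-06), and within batches 1, 2 and 3 it was 2.15, 4.35 and 4.94 log2. Knockout vehicle libraries held 15.6, 15.5 and 17.4 CPM in batch 1, 9.76 CPM in batch 2 and 8.94 CPM in batch 3. Their IFNγ counterparts held 131, 137 and 142 CPM, 75.4 CPM and 179 CPM. The knockout groups did not overlap, and Msr1 rose 9.95-fold (3.31 ± 0.37 log2, adjusted p = 1.2e-06), at 3.07, 2.94 and 4.31 log2 by batch. The difference of the responses was not called (0.38 ± 0.48 log2, adjusted p = 0.70), and it was 0.92, −1.41 and −0.63 log2 by batch. Under vehicle the knockout stood 5.18-fold lower (−2.37 ± 0.36 log2, adjusted p = 5.2e-05), but the lines overlapped: the wild-type library of batch 2 lay below 3 knockout libraries. Within batches that difference was −2.90, −0.65 and −1.33 log2, and from batches 2 and 3 alone it was not called (−0.94 log2, adjusted p = 0.12). Under IFNγ the lines did not overlap, at 3.98-fold lower in the knockout (−1.99 ± 0.34 log2, adjusted p = 0.00015) and −1.98, −2.07 and −1.96 log2 by batch.

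Marco was a rare transcript throughout and reached the test through its wild-type libraries. Its CPM in wild-type vehicle libraries were 2.15, 3.13 and 3.26 in batch 1, 0.921 in batch 2 and 1.85 in batch 3. With IFNγ they were 7.66, 6.91 and 7.36, 4.99 and 6.50, all above the vehicle libraries. Marco rose 3.00-fold (1.59 ± 0.46 log2, adjusted p = 0.0062), a call lost from batches 2 and 3 alone (2.05 log2, adjusted p = 0.064). The 5 knockout vehicle libraries together held 14 Marco reads, 2 of them with none, and the IFNγ ones 62 reads. By library the knockout levels were 0.180, 0, 0.302, 0.0778 and 0 CPM under vehicle and 0.413, 0.176, 0.685, 1.02 and 0.640 CPM under IFNγ (replicates 1 to 5). The fitted rise in knockout cells was 5.14-fold (2.36 ± 0.64 log2, adjusted p = 0.0056) with overlapping groups. It became 2.99 log2 without knockout vehicle replicate 3 and 1.37 log2 (adjusted p = 0.052) in batch 1 alone. The lines did not overlap under either treatment. As a description, given that the filter was passed through the wild-type libraries, the fitted difference was −4.28 ± 0.60 log2 under vehicle and −3.50 ± 0.52 log2 under IFNγ, and the former was −4.93 log2 without knockout vehicle replicate 3.

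**Figure D3:**
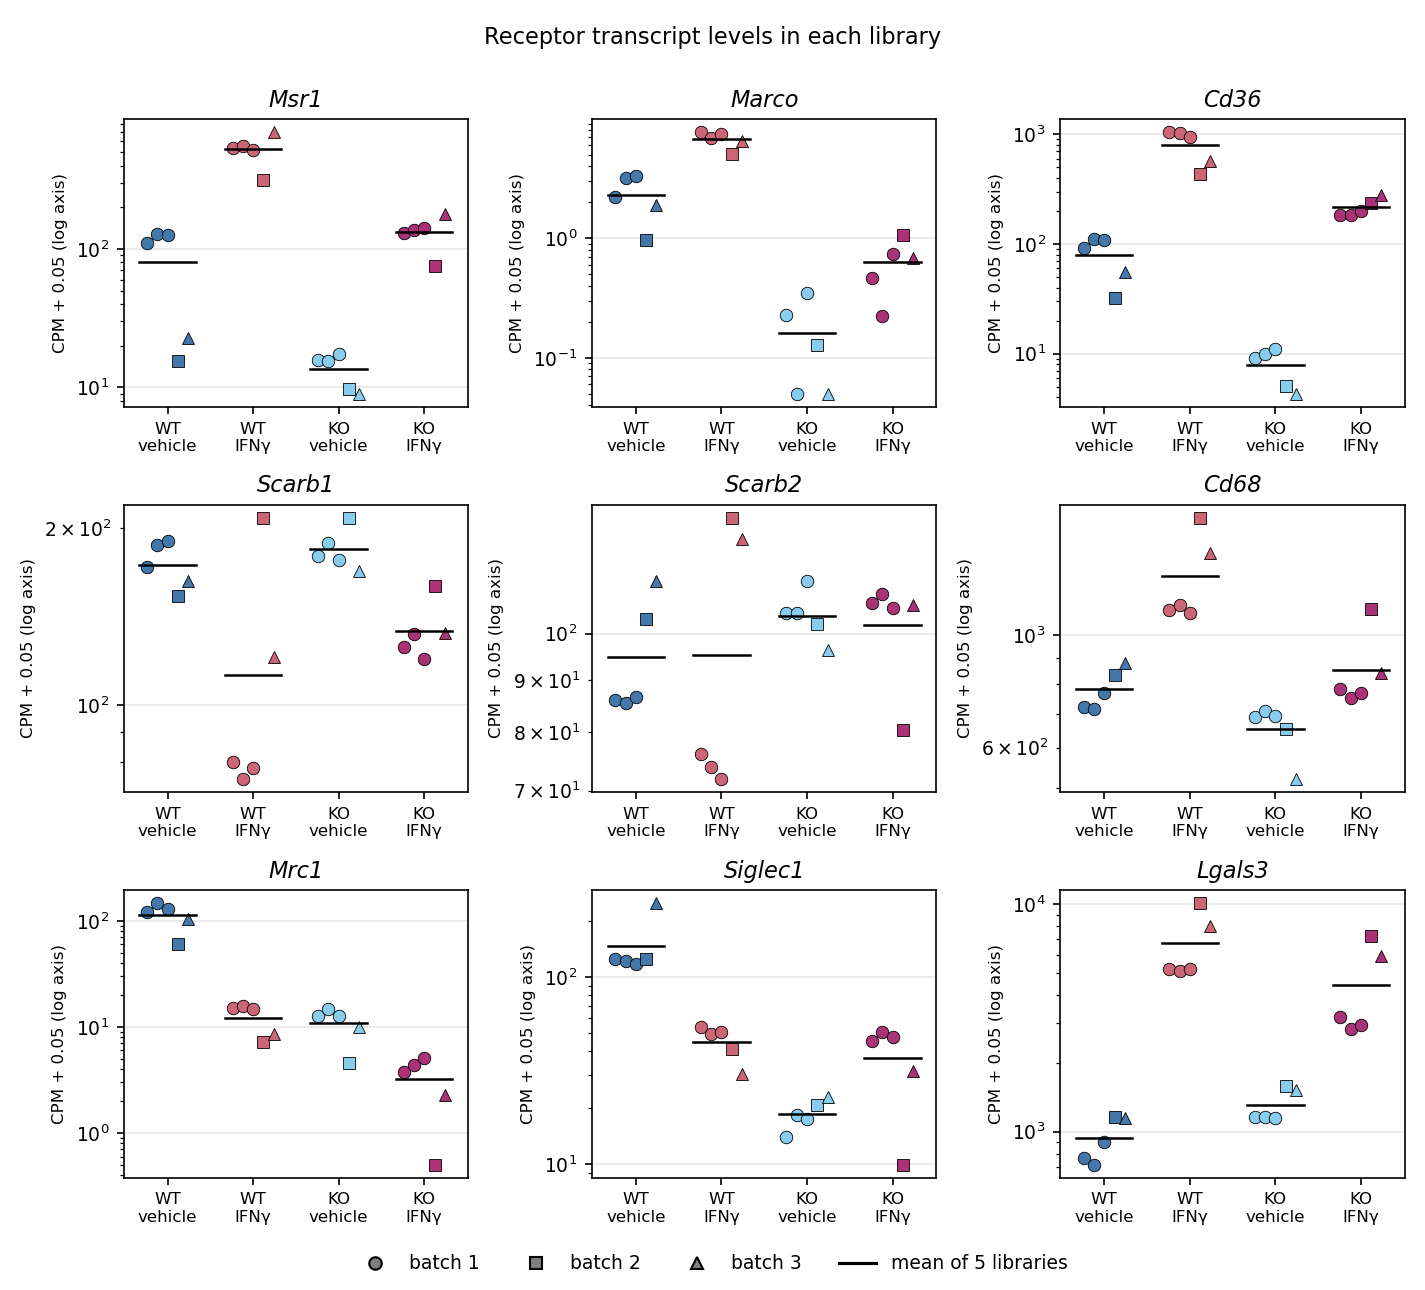
CPM of each gene in all 20 libraries (log axis, 0.05 added so that libraries without a read can be drawn), by group, with marker shape for batch and a line for the mean of 5. For Msr1 the wild-type vehicle libraries of batches 2 and 3 sit at 15.4 and 22.6 CPM, near the knockout vehicle libraries, while those of batch 1 sit at 110.5 to 127 CPM.

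Cd36, the fatty acid and oxidized lipoprotein receptor of class B, showed the largest fitted IFNγ rise of the set in both lines, although in wild-type cells of batches 2 and 3 that of Msr1 was larger. Wild-type vehicle cells had 92.1, 111 and 108 CPM in batch 1, 32.4 CPM in batch 2 and 55.5 CPM in batch 3. The IFNγ group had 1045, 1041 and 949 CPM, 439 CPM and 568 CPM, with no overlap (10.3-fold, 3.37 ± 0.26 log2, adjusted p = 4.9e-09). Knockout cells started from 9.16, 9.84 and 10.98 CPM in batch 1, 5.06 CPM in batch 2 and 4.25 CPM in batch 3. They reached 184, 184 and 202 CPM, 238 CPM and 282 CPM with IFNγ, again without overlap (31.0-fold, 4.95 ± 0.29 log2, adjusted p = 1.5e-10). Batches 2 and 3 were the low libraries of both vehicle groups and of the wild-type IFNγ group, but the high ones of the knockout IFNγ group. Knockout cells lay below wild-type cells in every library, 9.93-fold under vehicle (−3.31 ± 0.27 log2, adjusted p = 1.8e-08) and 3.31-fold under IFNγ (−1.73 ± 0.25 log2, adjusted p = 2.3e-05). By batch the difference under IFNγ was −2.41, −0.88 and −1.01 log2, and batches 2 and 3 alone gave −0.97 log2 (adjusted p = 0.035). The response was larger in the knockout by 1.59 ± 0.35 log2 (adjusted p = 0.011), at 0.95, 1.78 and 2.67 log2 by batch. Without a batch term this difference was 1.45 log2 and not called (adjusted p = 0.15).

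The other class B receptors moved little, and in TMM-scaled CPM not alike between batches. Scarb1, the high-density lipoprotein receptor, was at 172, 187 and 190.2 CPM in batch 1, 153 CPM in batch 2 and 163 CPM in batch 3 of the wild-type vehicle group. With IFNγ it was at 79.9, 74.8 and 78.2 CPM in batch 1 but 208 CPM in batch 2 and 120.5 CPM in batch 3. In TMM-scaled CPM the groups overlapped because the batch 2 library with IFNγ was above all vehicle libraries. The TMM factor, which multiplies a library's total, was 0.63 in that library and 0.76 in the batch 3 library with IFNγ. It was 1.04 to 1.05 in batch 1 with IFNγ and 1.01 to 1.1 under vehicle. The TMM-scaled fit gave a fall of 1.64-fold (−0.71 ± 0.18 log2, adjusted p = 0.0021), at −1.23, 0.44 and −0.43 log2 by batch. Batches 2 and 3 alone gave 0.01 log2 (adjusted p = 0.98), and plain library totals gave −0.97 log2 (adjusted p = 1.1e-06). Knockout cells had 179, 188 and 177 CPM, 208 CPM and 169 CPM under vehicle against 125, 132 and 119.5 CPM, 159 CPM and 132 CPM with IFNγ. These groups did not overlap, and the fall was 1.38-fold (−0.47 ± 0.18 log2, adjusted p = 0.038). Its call was lost in 11 of 20 alternative settings, among them the fit without knockout vehicle replicate 1, 2 or 3 or without knockout IFNγ replicate 1, 3, 4 or 5, with adjusted p from 0.054 to 0.081. Replicate number as a block gave adjusted p = 0.057 for it. Scarb1 did not pass between the lines, at 0.07 ± 0.18 log2 under vehicle (adjusted p = 0.81) and 0.31 ± 0.18 log2 under IFNγ (adjusted p = 0.17). The latter was called in 4 settings: without wild-type IFNγ replicate 4 (0.59 log2, adjusted p = 0.0016), in batch 1 alone (0.72 log2, adjusted p = 2.2e-12), in batches 1 and 3 (0.55 log2, adjusted p = 0.0015) and with plain library totals (0.50 log2, adjusted p = 0.0019). By batch it was 0.69, −0.39 and 0.14 log2.

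Scarb2, the lysosomal membrane protein, was called in none of the 5 comparisons of edgeR, at an unadjusted p of 0.32 or more in each, and DESeq2 and limma-voom called it in none either. Wild-type libraries held 85.95, 85.3 and 86.5 CPM in batch 1, 103 CPM in batch 2 and 112.5 CPM in batch 3 under vehicle. With IFNγ they held 76.1, 73.7 and 71.8 CPM in batch 1 but 130.0 and 124 CPM in batches 2 and 3. In TMM-scaled CPM the IFNγ value lay under the vehicle value in batch 1 and above it in the other batches, with −0.22, 0.33 and 0.14 log2. The IFNγ libraries of batches 2 and 3 are those with TMM factors of 0.63 and 0.76. With plain library totals the fitted wild-type response was −0.28 log2 and not called (adjusted p = 0.078). Knockout libraries ranged from 96.2 to 113 CPM under vehicle and from 80.3 to 109 CPM with IFNγ. Fitted values were −0.01 ± 0.15 log2 with IFNγ in wild-type cells (adjusted p = 0.96), −0.03 ± 0.15 in knockout cells (adjusted p = 0.89), and 0.15 ± 0.15 and 0.13 ± 0.15 between the lines under vehicle and IFNγ. Batch 1 alone called 3 of these, at −0.23 log2 with IFNγ in wild-type cells (adjusted p = 0.00022) and 0.31 and 0.57 log2 between the lines (adjusted p = 7.8e-06 and 1.2e-10). Batches 1 and 3 together also called the line difference under IFNγ (0.35 log2, adjusted p = 0.031).

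Cd68, the late endosomal class D member, was abundant everywhere, and its fitted changes were under 2-fold. Wild-type vehicle libraries held 721, 714 and 768 CPM in batch 1, 833 CPM in batch 2 and 883 CPM in batch 3, and IFNγ libraries 1123, 1144 and 1105 CPM, 1704 CPM and 1455 CPM. No library of one group reached the other, for a rise of 1.65-fold (0.72 ± 0.13 log2, adjusted p = 9.8e-05). By batch this was 0.61, 1.03 and 0.72 log2 in TMM-scaled CPM. The IFNγ libraries of batches 2 and 3 are those with TMM factors of 0.63 and 0.76. On plain totals the rise was larger in batch 1 than in batches 2 and 3, and the fit gave 0.48 log2 (adjusted p = 0.001). In knockout cells the levels were 689.9, 707 and 693 CPM, 654 CPM and 519.8 CPM under vehicle and 783.5, 750.4 and 769 CPM, 1125 CPM and 841 CPM with IFNγ. The groups did not overlap, at a rise of 1.29-fold (0.36 ± 0.13 log2, adjusted p = 0.030). By batch it was 0.14, 0.78 and 0.69 log2. The call was lost in 9 of 20 settings, among them those without knockout vehicle replicate 4 (adjusted p = 0.11) or 5 (0.12), without knockout IFNγ replicate 4 (0.080), with plain library totals (0.23 log2, adjusted p = 0.093) and with replicate number as a block (adjusted p = 0.052). Under vehicle the lines did not overlap in CPM, but the difference was not called (−0.25 ± 0.13 log2, adjusted p = 0.16). Under IFNγ Cd68 was 1.53-fold lower in the knockout (−0.61 ± 0.13 log2, adjusted p = 0.00098). In TMM-scaled CPM the groups overlapped through the library labelled knockout, IFNγ, replicate 4. Its TMM factor was 0.89, against 1.05 to 1.06 in batch 1 of that group, and overlap on plain totals was not tested. The call was lost from batches 2 and 3 alone (−0.71 log2, adjusted p = 0.13).

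Mrc1, the mannose receptor, was the member that IFNγ lowered most. Its levels were 121, 147 and 129.6 CPM in batch 1, 60.3 CPM in batch 2 and 104 CPM in batch 3 of the wild-type vehicle group and 15.2, 15.8 and 14.6 CPM, 7.10 CPM and 8.48 CPM with IFNγ. The groups were far apart (9.33-fold lower, −3.22 ± 0.20 log2, adjusted p = 2.3e-10), and batches 1 to 3 gave −3.12, −3.07 and −3.60 log2. Knockout vehicle libraries, at 12.7, 14.6 and 12.7 CPM, 4.51 CPM and 9.99 CPM, lay within the range of wild-type cells with IFNγ except that of batch 2, which lay below it. IFNγ brought them to 3.68, 4.36 and 5.05 CPM, 0.454 CPM and 2.21 CPM, a fall of 3.61-fold (−1.85 ± 0.20 log2, adjusted p = 8.8e-07). These 2 groups overlapped only because the vehicle library of batch 2 lay below the highest IFNγ library. Knockout cells held less Mrc1 than wild-type cells in every library, 10.7-fold under vehicle (−3.42 ± 0.20 log2, adjusted p = 2.2e-10) and 4.13-fold under IFNγ (−2.05 ± 0.21 log2, adjusted p = 2.6e-07). The fall with IFNγ was smaller in the knockout by 1.37 ± 0.28 log2 (adjusted p = 0.0058). That was 1.52, −0.01 and 1.47 log2 by batch, and it was not called from batches 2 and 3 alone (0.80 log2, adjusted p = 0.64) or without a batch term (1.43 log2, adjusted p = 0.28).

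Siglec1, the sialic acid-binding receptor, fell with IFNγ in wild-type cells and rose in knockout cells. Wild-type vehicle libraries had 124, 122 and 117.5 CPM in batch 1, 124 CPM in batch 2 and 248 CPM in batch 3. Their IFNγ counterparts had 53.7, 49.2 and 50.5 CPM, 41.0 CPM and 30.3 CPM. The fall was 3.22-fold (−1.69 ± 0.30 log2, adjusted p = 9.6e-05), without overlap and downward in each batch (−1.24, −1.60 and −3.03 log2). Knockout vehicle libraries had 13.9, 18.2 and 17.4 CPM, 20.5 CPM and 22.8 CPM. With IFNγ those of batch 1 had 45.2, 50.7 and 47.6 CPM, that of batch 3 had 31.4 CPM, and the library labelled knockout, IFNγ, replicate 4 (batch 2) had 9.88 CPM, below every vehicle library. The fitted rise of 1.90-fold (0.93 ± 0.30 log2, adjusted p = 0.019) was thus 1.54, −1.05 and 0.46 log2 by batch. It was 1.23 log2 without that library (adjusted p = 0.00044), turned to −0.23 log2 in batches 2 and 3 alone (adjusted p = 0.70) and lost its call with plain library totals (0.77 log2, adjusted p = 0.094), without knockout vehicle replicate 1 (0.80 log2, adjusted p = 0.058) and without knockout IFNγ replicate 2 (0.80 log2, adjusted p = 0.051). The difference of the responses was 2.62 ± 0.43 log2 (adjusted p = 0.0013), at 2.78, 0.55 and 3.49 log2 by batch, and batches 2 and 3 alone gave 2.02 log2 (adjusted p = 0.15). Knockout cells were 7.76-fold lower under vehicle, without overlap (−2.96 ± 0.32 log2, adjusted p = 7.3e-07), whereas under IFNγ the lines overlapped (−0.34 ± 0.30 log2, adjusted p = 0.39).

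**Figure D4:**
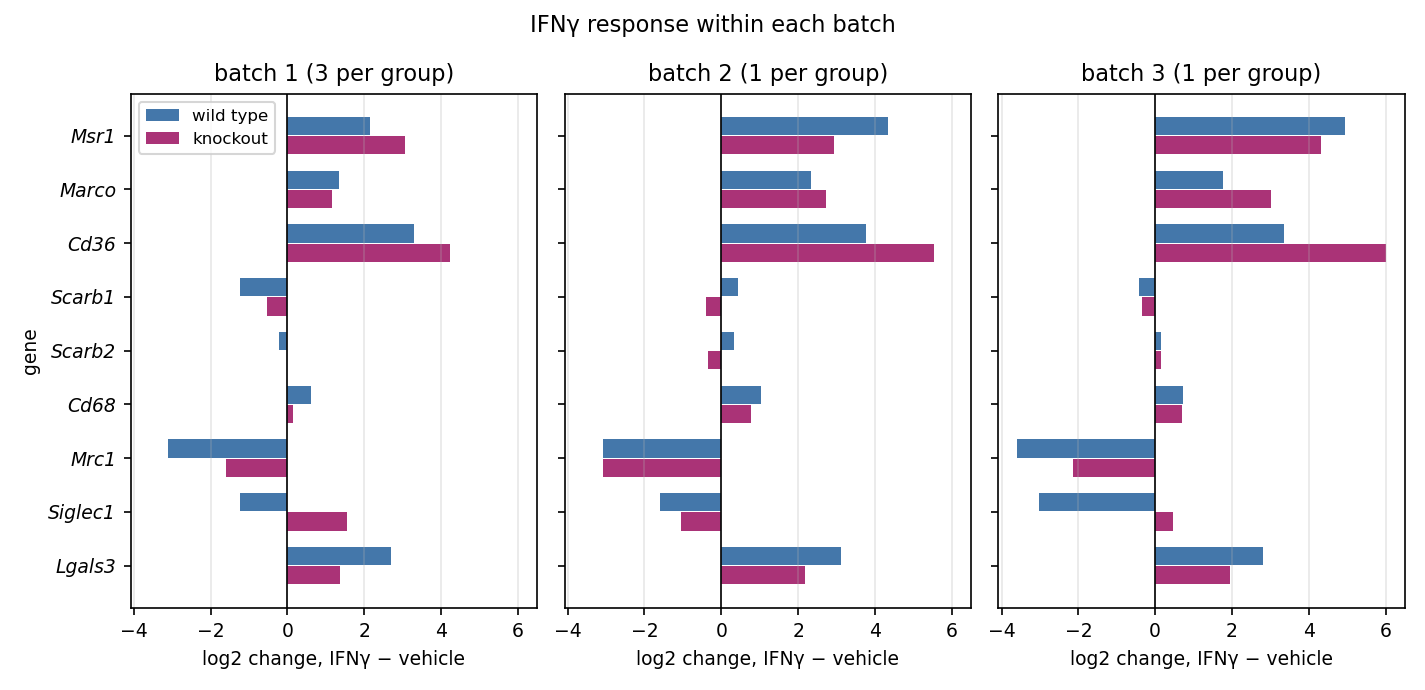
Log2 change with IFNγ (difference of mean log2 CPM, x axis) of each gene within each batch, in wild-type and knockout cells; batch 1 has 3 libraries per group and the others 1, so no error is drawn. Siglec1 in knockout cells is at 1.54, −1.05 and 0.46, and Scarb1 in wild-type cells at −1.23, 0.44 and −0.43, while Cd36, Msr1, Marco, Cd68, Lgals3 and Mrc1 keep 1 direction in the 3 batches of each line.

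Lgals3, encoding galectin-3, was the most abundant member under IFNγ. Wild-type vehicle libraries held 762, 717 and 902 CPM in batch 1, 1163 CPM in batch 2 and 1151 CPM in batch 3. With IFNγ the levels were 5168, 5105 and 5205 CPM, 10110 CPM and 8017 CPM, a rise of 6.97-fold (2.80 ± 0.15 log2, adjusted p = 3.0e-11). In knockout cells they went from 1159, 1157 and 1143 CPM, 1591 CPM and 1524 CPM to 3194, 2824 and 2955 CPM, 7220 CPM and 5945 CPM, a rise of 3.16-fold (1.66 ± 0.14 log2, adjusted p = 3.4e-08). Vehicle and IFNγ libraries did not overlap in either line, and in all 4 groups batches 2 and 3 were the high libraries. Knockout cells held 1.41-fold more under vehicle (0.50 ± 0.14 log2, adjusted p = 0.011) and 1.56-fold less under IFNγ (−0.64 ± 0.14 log2, adjusted p = 0.0012), with overlapping groups in both cases. In TMM-scaled CPM these were by batch 0.55, 0.45 and 0.40 log2 under vehicle and −0.79, −0.49 and −0.43 log2 under IFNγ. The IFNγ libraries of batches 2 and 3 had TMM factors of 0.63 and 0.76 in wild-type and 0.89 and 0.88 in knockout cells. On plain totals those of batch 2 were nearly equal, at 129626 Lgals3 reads of 20231230 in wild-type and 127188 of 19792622 in knockout cells. Both calls were lost in batches 2 and 3 alone (adjusted p = 0.53 and 0.35) and without a batch term (adjusted p = 0.26 and 0.12). The rise was smaller in the knockout by 1.14 log2 (−1.14 ± 0.20, adjusted p = 0.0020), at −1.33, −0.94 and −0.84 log2 by batch. That call too was lost in batches 2 and 3 alone (−0.91 log2, adjusted p = 0.48) and without a batch term (−1.09 log2, adjusted p = 0.21).

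Other genes of the same pathways were taken from 5 lists. Their counts stand against 58.9% of all genes called with IFNγ in wild-type cells, 43.2% in knockout cells, and 27.3% and 39.0% between the lines under vehicle and IFNγ. Of 18 other scavenger receptors, 11 were tested. With IFNγ 5 of them rose in wild-type cells, among them the hyaluronan receptor Cd44 (1.76-fold), while in knockout cells 2 rose and 1 fell (Cd44 at 1.81-fold, Scara3 lower by 1.67-fold). The list medians were 0.66 and 0.43 log2. Between the lines 1 was higher and 2 lower under vehicle, and 1 higher and 5 lower under IFNγ, with the clearance receptor Stab1 4.04-fold and 2.70-fold lower and Cd44 1.46-fold and 1.51-fold higher. For these receptors the share called was below that of all genes with IFNγ in both lines and near it between the lines under vehicle (3 of 11). Of 18 genes of apoptotic cell uptake, 13 were tested, and 7 rose and 3 fell with IFNγ in wild-type cells against 6 and 2 in knockout cells. Mfge8, a bridge to phosphatidylserine, rose 6.32-fold in wild-type cells, and the engulfment kinase Mertk rose 5.73-fold in knockout cells. Dock1 and Elmo1, which activate Rac during engulfment, fell in both lines (3.34-fold and 2.04-fold, then 2.29-fold and 1.88-fold). Knockout cells had 3 of these genes higher and 5 lower under vehicle, with Mertk 10.1-fold lower, and 4 higher and 8 lower under IFNγ, with Mfge8 13.9-fold lower. Every gene named from the lists, here and below, was called in the comparison it is named for.

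Of 18 genes of fatty acid and lipoprotein handling, 16 were tested. In wild-type cells 9 rose and 4 fell with IFNγ, the lipid droplet protein Plin2 by 8.90-fold upwards and Apoe by 2.21-fold downwards. In knockout cells 7 rose and 2 fell, the lysosomal lipase Lipa by 1.93-fold upwards and the cholesterol exporter Abca1 by 1.81-fold downwards. Knockout cells had 2 of them higher and 7 lower under vehicle, and 2 higher and 11 lower under IFNγ. Apoe was 28.2-fold and 24.7-fold lower, Plin2 5.67-fold lower under IFNγ, and Abca1 1.65-fold and 1.53-fold higher. Medians of this list were 0.56, 0.34, −0.63 and −0.65 log2 in these 4 comparisons, against −0.02 to 0.03 over all genes. All 14 lysosomal genes were tested, and 9 rose with IFNγ in each line. The cathepsin Ctss rose 4.07-fold and 3.02-fold in wild-type and knockout cells. Between the lines 1 lysosomal gene was higher and 5 lower under vehicle, and 1 higher and 8 lower under IFNγ. Of mannose receptor relatives, Siglecs and galectins 11 of 14 were tested, and 5 rose and 1 fell in wild-type cells against 3 and 1 in knockout cells. Lgals8, a galectin of damaged vacuoles, rose 2.56-fold and 2.13-fold, and the inhibitory Siglece fell 5.71-fold and 8.50-fold. In knockout against wild-type cells 1 gene of that list was higher (Lgals8, 1.25-fold) and 2 lower under vehicle, and 2 were lower under IFNγ. The shares called of this list were below or near those of all genes in all 4 comparisons. The difference of the responses was called for 1 other scavenger receptor (Cd14, −1.45 log2), for 4 uptake genes, with Mfge8 at −1.89 and Cd300lf at −1.53 log2, and for 3 lipid genes, with Plin2 at −2.57 log2, against 6.50% of all genes.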

How the data were processed

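The 20 libraries were poly(A)-enriched RNA of BV-2 cells. The authors deposited raw read counts per Ensembl gene; the genome build is GRCm39, and Trim Galore, FastQC, STAR and DESeq2 are listed as tools, per the submitters' processing notes. For the counting tool, its strand setting and the annotation, nothing is given in the sources used here. No member had an exon overlapping another gene in GENCODE vM21 (GRCm38), which also gave symbols for 51948 IDs (91.2%) and exon lengths.

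In edgeR 4.0.16 (R 4.3.3) filterByExpr on the 4 groups kept 13755 genes, which were scaled by TMM and fitted with robust quasi-likelihood models on group and batch (14 residual degrees of freedom). CPM use TMM-scaled totals, except Malat1, which uses plain totals. The sign ± follows a log2 change as SE and a level as SD. In edgeR this SE is back-calculated, as the size of the log2 change over the square root of the quasi-likelihood F statistic. Each p-value called adjusted is edgeR's with Benjamini-Hochberg adjustment over all genes unless another setting is named. Within-batch values are differences of mean log2 CPM (prior count of 2). Code was tested on simulated data.

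The labels give same-numbered libraries 1 batch, which is in the model. Within batch 1 deviations of same-numbered libraries correlated at −0.04 to 0.04, so numbers were not taken as pairs beyond batch. No replicates were copies (chi-squared per degree of freedom of 3.54 or more).

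Members and gene lists were chosen with earlier results of these data known. The rule for names took all members and, per list and comparison, up to 2 called genes each way with the smallest p; the text names part of these (a few are not reported here), along with the 3 genes most correlated with a member. Alternatives were RLE scaling, plain totals, no filter beyond 1 read, DESeq2 1.42.0, limma-voom (limma 3.58.1), no batch term, replicate number as a block, batch subsets, a 1 log2 minimum and leaving out each library. The fit on batches 1 and 3, the PU.1 and AP-1 motifs were added after the data were seen.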

Additional observations from a re-analysis of the deposited data

Results flagged for a closer look

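The IFNγ response differed between the lines by a direct test for 4 of the 9 genes (knockout minus wild type, edgeR adjusted p given above): Cd36 by 1.59 log2, Mrc1 by 1.37 log2, Siglec1 by 2.62 log2 and Lgals3 by −1.14 log2. For Cd36 the response was larger in the knockout from a lower vehicle level. For Mrc1 the fall, and for Lgals3 the rise, was smaller, and for Siglec1 the 2 responses had opposite signs. None of these 4 calls held in every alternative setting, and within batch 2 the difference for Mrc1 was −0.01 log2.

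Over the 36 sets of 5 libraries (9 genes in 4 groups), 4 held a library far from the others, by a gap of over 0.71 of the range. For a single set, chance alone gives about 1 in 20 where the libraries are exchangeable and their values normally distributed. These sets hold 3 libraries of batch 1 and 1 of each other batch, and they share the same 20 libraries and are not independent. That rate is therefore only a guide, and the 4 sets were not tested against it. Siglec1 stood at 248 CPM in wild-type vehicle replicate 5 (batch 3), Scarb2 at 80.3 CPM and Cd68 at 1125 CPM in the library labelled knockout, IFNγ, replicate 4 (batch 2), and Cd68 at 519.8 CPM in knockout vehicle replicate 5 (batch 3). All 4 values come from libraries of batches 2 or 3, and 2 of them from 1 library.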

How the results depend on the processing

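Of the 32 calls over the 9 genes and 5 comparisons, 18 held their direction and call in every alternative setting and 14 did not, among them all 4 for the difference of responses; of the 13 values not called, 8 were called somewhere. Replicate number as a block ended 2 calls, those of Scarb1 (−0.47 log2) and Cd68 (0.36 log2) with IFNγ in knockout cells, leaving 6 genes there, and changed no other call. Over all genes that setting called 5362 of 13755 there, against 5937 in the main fit. Leaving out single libraries gave 8 called genes for IFNγ in wild-type cells, 6 to 7 in knockout cells, 6 for the lines under vehicle, 6 to 7 under IFNγ and 4 for the difference of responses. Over all genes, in the same order, these fits called 7593 to 8192, 4911 to 5728, 3212 to 3535, 4613 to 5689 and 542 to 1448. They tested 13951 to 14077 genes. The main fit called 8101, 5937, 3753, 5363 and 894 of 13755. For IFNγ in knockout cells 5 genes were called in batches 2 and 3 only, and 5 with a minimum of 1 log2, against 8. Over all genes batches 2 and 3 called 4266 of 14288 there, against 5937 of 13755, and calls past 1 log2 were not counted. For the difference of responses 1 gene (Siglec1 without a batch term, Cd36 in batches 2 and 3 only) and 8 genes (batch 1 only) were called, against 4; the cause was not tested, and batches 2 and 3 hold 2 libraries per group.

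Values that changed sign were mostly near 0. In batches 2 and 3 only, Scarb1 turned to 0.01 with IFNγ in wild-type cells, −0.16 between the lines under IFNγ and −0.40 for the difference of responses, Scarb2 to 0.24, −0.12 and −0.47 (wild-type IFNγ response, lines under vehicle, lines under IFNγ), Siglec1 to −0.23 and Msr1 to −1.08 (difference of responses). In batch 1 only, Scarb1 turned to −0.02 (lines under vehicle) and Scarb2 to 0.03 (knockout IFNγ response) and 0.26 (difference). In batches 1 and 3 Scarb2 was at 0.03 and 0.16 for these 2. Scarb2 also turned to 0.01 with RLE scaling and DESeq2 (wild-type IFNγ response) and to 0.12 with plain totals and 0.01 with limma-voom (difference). Leaving out single libraries gave Scarb2 values of −0.18 to 0.06, −0.12 to 0.09 and −0.09 to 0.13 log2 for the wild-type response, the knockout response and their difference, and −0.07 to 0.14 for Scarb1 between the lines under vehicle. Scaling by plain totals put the all-gene median at −0.21 and −0.16 log2 for IFNγ in wild-type and knockout cells, 0.08 and 0.13 between the lines under vehicle and IFNγ, and higher calls made up 36.7%, 38.5%, 50.1% and 62.3% of all calls against 49.2%, 49.5%, 45.9% and 51.4% with TMM. Over all genes the difference of responses was called for 138 (no batch term), 121 (batches 2 and 3) and 7096 (batch 1) genes against 894. Marco, with 14 reads over the knockout vehicle group, is limited by depth.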

Other observations

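Likeness of pattern was described over the 20 libraries by the Pearson correlation of log2 CPM after each batch mean was subtracted. The libraries share 4 groups, so a high value says only that group levels and spread ran alike. Among the members Cd36 and Msr1 were most alike (r = 0.97), Msr1 and Cd68 stood at 0.87 and Mrc1 and Siglec1 at 0.78, whereas Scarb1 ran against Cd36 (−0.72) and Lgals3 (−0.72). Outside the set, Cd36 was closest to the pseudogene AC166110.3 (0.989), the costimulatory receptor Cd40 (0.986) and Calhm6 (0.979). Msr1 was closest to Slc11a1, a metal transporter of the phagosome (0.986), and to Ginm1 (0.977) and the lysosomal transporter Mfsd8 (0.975). Lgals3 was closest to Gm12474 (0.992), the phosphatase Dusp1 (0.991) and Rgs1 (0.991), and Mrc1 to Capn7 (0.984), Tbc1d2b (0.981) and Oxsr1 (0.976). The closest genes to Siglec1 (Gm20658, 0.950) and Scarb2 (Pank2, 0.909) were less alike.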
